A study of Mus musculus with 24 samples.

Results

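The genes described here encode the actin filament machinery of a kidney epithelial cell: actin itself, the factors that start, lengthen, cut, cap, bundle and decorate its filaments, the non-muscle myosin II motor and the ERM proteins that tie filaments to the plasma membrane. They were taken as a list of 52 mouse gene names and matched to the gene names of 1 deposited table of 12224 rows. Of the 52 names, 50 had a row of their own. Enah had 2 rows and is given apart, Myl12a and Myl12b stood only in a row of joined names and were left out, and the 49 genes with a single row are the ones counted below. All 49 passed the filter on low levels, for which a gene's mean across the 24 libraries had to reach 1 scaled unit.

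RNA came from mpkCCD cells, an immortalised mouse epithelial line from the cortical collecting duct, the kidney segment where vasopressin controls water uptake. The 24 poly(A)-selected libraries formed 4 groups of 6, and the question of the design was which responses to an agonist of GPR39, a zinc-sensing receptor, need that receptor. Agonist-treated WT cells and agonist-treated Gpr39 knockout (KO) cells received 1 µM cpd1324, while vehicle-treated WT cells and vehicle-treated KO cells received 0.1% DMSO. All 4 groups were exposed on the basolateral side for 2 h in the presence of 10 µM ZnCl2, after 9 days on permeable inserts without dDAVP, a vasopressin analogue, and 24 h in simple medium. The labels give neither the edited part of Gpr39 nor the number of KO clones, nor whether the 6 libraries of a group came from separate cultures, and p-values therefore speak of library-to-library spread, which may be technical.

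Actin monomers assemble into polar filaments that grow mainly at the barbed end. The Arp2/3 complex starts branches on existing filaments, formins and Ena/VASP proteins drive elongation, cofilins sever old filaments, profilins reload monomers, and capping protein stops growth. In collecting duct epithelium the cortical actin mesh supports cell junctions and the apical membrane and is known to restrain the traffic of water channel vesicles, and myosin II pulls on filaments decorated by tropomyosin.

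Libraries held 29785162 to 51931776 reads, as recovered from the deposited values. Levels are given in scaled units, the authors' length-normalised values times 92.1. They depend on the gene length used, such as 8245 bases for Arpc4. Whether these lengths match the transcripts present was not tested, so ratios of level between genes need not be ratios of RNA. Gpr39 averaged 9.37 ± 0.65 scaled units in vehicle-treated KO cells and 21.6 ± 1.61 in vehicle-treated WT cells (SD, n = 6 each), a log2 fold change of -1.16 ± 0.06. KO vehicle library 6 stood apart from its group, with a median absolute log2 distance of 0.243 to the other members of the group, whereas the other 23 libraries lay between 0.0557 and 0.107. Counts of calls that use that library are given with and without it, as are the log2 fold changes of most genes described in KO cells. Of 18 collecting duct and epithelial markers 14 had a single row of their own, and the epithelial genes Krt18, Cdh1 and Epcam were abundant in every group. The water channel gene Aqp2, which defines principal cells, was present in every group, at 11.7 ± 1.73, 17.7 ± 4.94, 66.4 ± 15.1 and 87.3 ± 18.0 scaled units in agonist-treated WT, vehicle-treated WT, agonist-treated KO and vehicle-treated KO cells.

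In WT cells the agonist raised most of the actin machinery within 2 h. Of the 49 genes, 41 were higher in agonist-treated than in vehicle-treated WT cells, 2 were lower and 6 did not pass the test (limma, adjusted p below 0.05 over all rows tested). Of all 11557 rows tested, 57.2% were called in this comparison, 28.6% higher and 28.6% lower. The libraries of the 2 groups did not overlap for 37 genes that were higher, a state that held for 19.8% of all rows, and for 1 gene that was lower, against 17.7% of all rows. The rise was at least 2-fold in 9 genes, Actb, Actg1, Actr3, Dstn, Tpm2, Flna, Palld, Myh9 and Myl9, where 3.6% of all rows were called with such a rise. The median log2 fold change was 0.46 over the 49 genes and -0.01 over all rows.

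**Figure D1:**
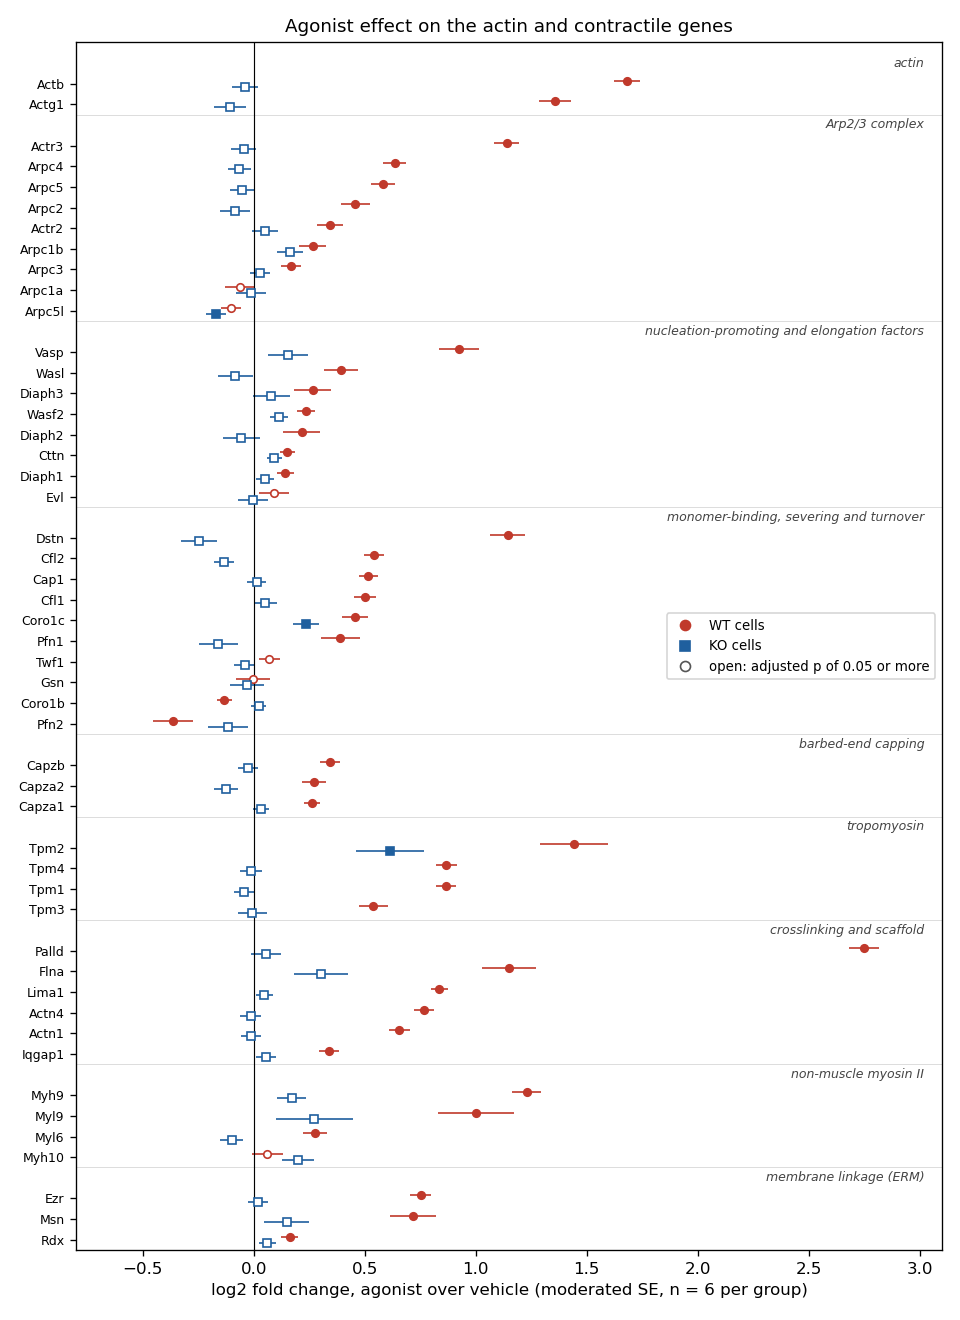
Log2 fold change of agonist over vehicle for the 49 genes, grouped by role, in WT cells (red circles) and in KO cells (blue squares). Bars are moderated standard errors with 6 libraries per group and open symbols have an adjusted p of 0.05 or more. In WT cells 41 genes are called higher and 2 lower, and in KO cells 2 are called higher and 1 lower.

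The size of these changes depended on how libraries were set against each other. Column totals were larger in agonist-treated WT libraries, 1085490 to 1197560 scaled units, than in vehicle-treated WT libraries, 942669 to 989598. With the deposited factors, all rows had a median log2 fold change near 0. Scaling each library to the same total moved the median of all rows to -0.24 and that of the 49 genes to 0.22. Under that scaling 26 genes were called higher and 8 lower, and under quantile scaling 26 higher and 7 lower. The shares of all rows called under these alternatives are not given here, so these counts have no background beside them. Of the 41 genes, 23 were called higher under all 3 scalings, whereas Cttn was called lower under both alternatives and Diaph1 was called lower with the same total. The 2 lower genes, Pfn2 and Coro1b, were called lower under all 3. A further scaling, by the median ratio of each library to the mean of all libraries, is not among the 3 counted here and below. It left the median of all rows at -0.01, near that of the deposited factors. Under it Cttn and Diaph1 were called higher, at 0.15 and 0.14, and Pfn2 and Coro1b lower, at -0.37 and -0.14. Its count of calls is not given here.

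**Figure D2:**
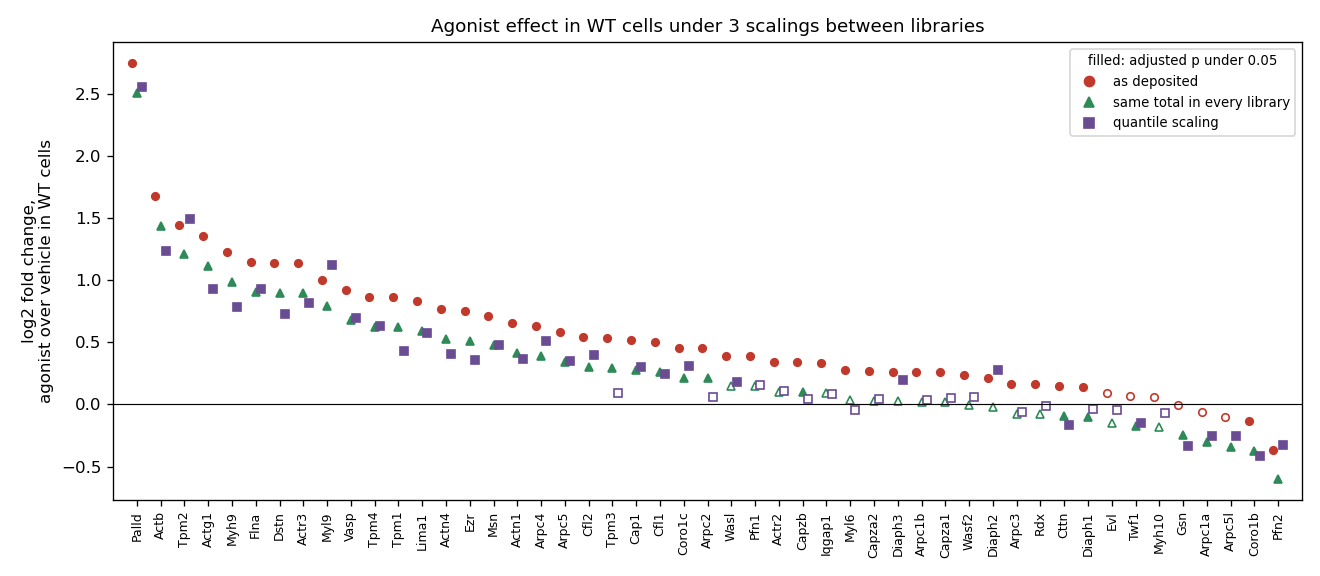
Log2 fold change of agonist over vehicle in WT cells for the 49 genes under the deposited factors (red circles), the same total in every library (green triangles) and quantile scaling (purple squares), ordered by the first, with filled symbols for an adjusted p below 0.05. The genes from Palld to Msn stay above 0 under each scaling, and the genes from Arpc3 rightward change sign or lie below 0 under at least 1 of them.

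Actin itself carried much of the summed level and of the change. Actb and Actg1 together made up 57.9% ± 1.15 of the summed level of the 49 genes in agonist-treated WT cells. Their share was 41.5% ± 1.46 in vehicle-treated WT cells (SD, n = 6 each). Actb encodes cytoplasmic beta-actin and Actg1 gamma-actin, proteins that differ at only a few residues near their amino terminus. Actb ranged from 12398 to 16039 scaled units with a median of 13984 in agonist-treated WT libraries, against 3980 to 4844 with a median of 4347 in vehicle-treated WT libraries. Actg1 ranged from 7319 to 9893 with a median of 8288 in agonist-treated WT libraries, against 3025 to 3618 with a median of 3237 in vehicle-treated WT libraries. For both genes every agonist-treated library lay above every vehicle-treated library. The log2 fold change was 1.68 ± 0.06 for Actb (adjusted p = 5.78e-18) and 1.35 ± 0.07 for Actg1 (adjusted p = 2.74e-14), and both stayed called higher under all 3 scalings. The coding sequences of Actb and Actg1 are similar, and both genes have processed pseudogenes. How the authors counted reads that match several places is not given in the sources used here.

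The 49 genes together took 3.23% to 3.65% of the column total in agonist-treated WT libraries, against 1.88% to 1.98% in vehicle-treated WT libraries. Actb made up 36.3% of the summed level of the 49 genes in agonist-treated WT cells and 23.7% in vehicle-treated WT cells. Of the rise in the sum, Actb accounted for 47.8% and Actg1 for 25.2%, followed by Myh9 with 3.56%, Ezr with 3.26%, Dstn with 2.69% and Tpm1 with 2.40%. Without Actb, the remaining genes still took 2.17% of the column total in agonist-treated WT cells and 1.47% in vehicle-treated WT cells. A summed level in a bulk library cannot tell more RNA per cell from a larger share of cells with that RNA.

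**Figure D3:**
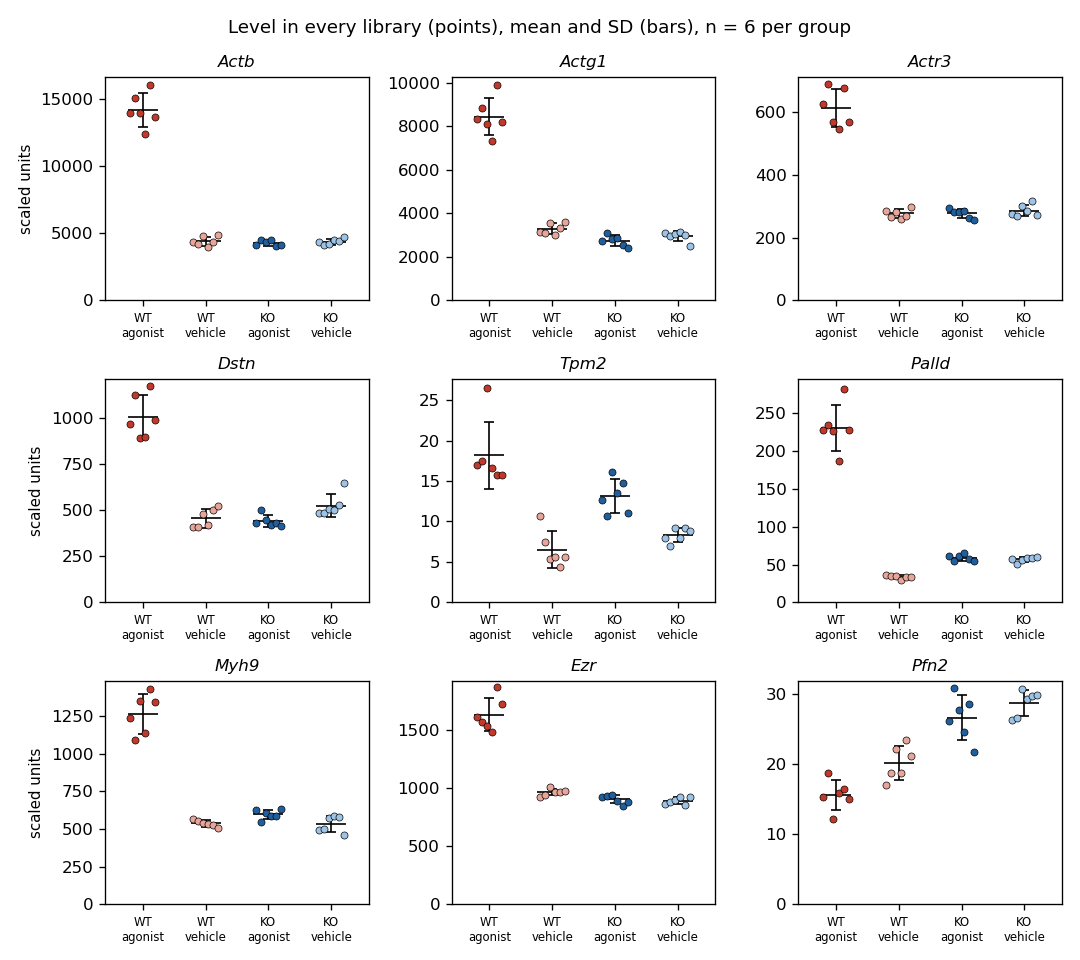
Level in scaled units of 9 genes in each of the 24 libraries (points), with the group mean and SD (bars, n = 6). Agonist-treated WT libraries lie above all other libraries for Actb, Actg1, Actr3, Dstn, Palld, Myh9 and Ezr, Tpm2 is also higher in agonist-treated than in vehicle-treated KO libraries, and Pfn2 is lowest in agonist-treated WT libraries, where 1 library reaches into the range of vehicle-treated WT libraries.

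Serum response factor is known to bind the CArG box, and actin genes are among its textbook targets, so the RefSeq promoter windows of the genes (assembly GRCm38.p6, 250 bases before to 50 after the start) were searched for it on both strands. At least 1 window was available for 44 of the 49 genes, and some genes had more than 1. In 5 of the 44 genes a window held a CArG box, or 11.4%, against 1.61% of the 8680 tested genes with a window. Counted by window and not by gene, the share was 1.63% of all 32851 windows. All 5 genes were called higher in agonist-treated WT cells with the deposited factors, as were 41 of the 49 genes, or 83.7%. Myl6 was called higher under neither alternative scaling. The stretches that hold these boxes are printed below. They are given 5′ to 3′ on the strand of the gene, with the box in capitals and up to 30 bases on either side.
Actg1, chr11:120348546-120348615, minus strand: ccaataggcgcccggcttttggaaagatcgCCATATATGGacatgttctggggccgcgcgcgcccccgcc
Lima1, chr15:99820157-99820226, minus strand: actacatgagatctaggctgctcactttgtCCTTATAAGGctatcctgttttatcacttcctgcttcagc
Myl9, chr2:156775273-156775342, plus strand: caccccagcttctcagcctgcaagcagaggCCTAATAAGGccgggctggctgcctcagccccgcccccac
Arpc4, chr6:113377863-113377902, plus strand: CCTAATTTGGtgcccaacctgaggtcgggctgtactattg
Myl6, chr10:128493020-128493089, minus strand: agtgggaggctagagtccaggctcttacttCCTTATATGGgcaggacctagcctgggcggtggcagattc
The box lay 90 to 81 bases before the start in Actg1, 47 to 38 in Lima1, 161 to 152 in Myl9, 50 to 41 in Myl6, and at the far edge of the window, 250 to 241 bases before the start, in Arpc4. The log2 fold changes of these 5 genes in WT cells ran from 0.27 for Myl6 to 1.35 for Actg1, and Palld, the gene with the highest value in the list, had no window with the box.
The AP-1 motif TGANTCA stood in windows of 4 genes (Actn4, Diaph2, Ezr and Palld), or 9.09%, against 6.24% of the tested genes and, by window, 7.81% of all windows. The TEAD motif GGAATG stood in windows of 8 genes (Actn4, Arpc2, Evl, Flna, Myh10, Palld, Pfn1 and Tpm1), or 18.2%, against 14.5% of the tested genes and 14.7% of all windows. The cAMP response element TGACGTCA stood in 1 gene, Myl6, or 2.27%, against 3.73% of the tested genes and 1.79% of all windows. Both strands were searched, and no match of 1 motif overlapped a match of another in these genes. A match of letters is a description of the window and does not show that a factor binds there.

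Within the Arp2/3 complex, which nucleates branched filaments, 7 of 9 genes were called higher and none lower in agonist-treated WT cells. With the deposited factors 28.6% of all rows were called higher and 28.6% lower, which is the background for each count by role here and below. Only Actr3, Arpc4 and Arpc5 were called higher under all 3 scalings, and 2 others, Arpc1a and Arpc5l, were called lower under both alternatives. Actr3 encodes Arp3, an actin-like subunit of the branch. Its level ranged from 547 to 689 scaled units with a median of 598 in agonist-treated WT libraries, against 261 to 298 with a median of 276 in vehicle-treated WT libraries. The groups did not overlap, and the log2 fold change was 1.14 ± 0.06 (adjusted p = 4.93e-15). Actr2, which encodes the partner subunit Arp2, averaged 228 ± 15.1 and 179 ± 3.11 scaled units in the same groups, a log2 fold change of 0.34 ± 0.06. Arpc2, Arpc1b and Arpc3 had log2 fold changes of 0.46 ± 0.07, 0.26 ± 0.06 and 0.17 ± 0.05. Arpc5l encodes an alternative form of the Arpc5 subunit. It ranged from 87.6 to 98.3 with a median of 94.5 scaled units in agonist-treated WT libraries, against 94.1 to 110.5 with a median of 98.7 in vehicle-treated WT libraries. These groups overlapped and the log2 fold change of -0.10 ± 0.05 did not pass the test (adjusted p = 0.0597). Arpc1a, the other subunit gene that did not pass, had a log2 fold change of -0.06 ± 0.07.

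Among the 8 nucleation-promoting and elongation factors, 7 were called higher and none lower, but only Vasp under all 3 scalings, and with the same total Diaph1 and Cttn were called lower. Vasp encodes a tetrameric elongation factor of focal adhesions and the leading edge. It ranged from 205 to 250 scaled units with a median of 232 in agonist-treated WT libraries, against 114 to 128 with a median of 123 in vehicle-treated WT libraries. The groups did not overlap, and the log2 fold change was 0.92 ± 0.09 (adjusted p = 2.69e-09). Its relative Evl ranged from 77.9 to 97.3 with a median of 86.5 in agonist-treated WT libraries, against 70.2 to 91.1 with a median of 82.3 in vehicle-treated WT libraries. The groups overlapped, and the log2 fold change of 0.09 ± 0.07 did not pass the test (adjusted p = 0.26). The third family gene, Enah, had 1 row of 8627 bases at 25.0 ± 2.44 and 21.3 ± 1.20 scaled units in agonist-treated and vehicle-treated WT cells, with a log2 fold change of 0.23 ± 0.07 (adjusted p = 0.00546). Its other row, of 6513 bases, had group means of 0.187 and 0.298 in those groups and was below the filter. Wasl, which encodes the Arp2/3 activator N-WASP, averaged 190 ± 19.5 and 144 ± 7.51 scaled units, a log2 fold change of 0.39 ± 0.08. The 3 diaphanous formin genes, which extend unbranched filaments, Wasf2, which encodes a WAVE protein, and Cttn, which encodes the branch stabiliser cortactin, had log2 fold changes of 0.14 to 0.26.

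Of the 10 genes for monomer binding, severing and turnover, 6 were called higher and 2 lower, and under all 3 scalings 5 stayed higher (Cfl1, Cfl2, Dstn, Cap1 and Coro1c) and the same 2 lower, while Twf1 and Gsn were called lower with the same total and under quantile scaling. Dstn encodes destrin, which severs and depolymerises filaments as cofilin does. It ranged from 889 to 1169 scaled units with a median of 977 in agonist-treated WT libraries, against 407 to 521 with a median of 447 in vehicle-treated WT libraries. Those groups did not overlap, and the log2 fold change was 1.14 ± 0.08 (adjusted p = 6.14e-12). Cfl1 and Cfl2, the cofilin genes, had smaller log2 fold changes of 0.50 ± 0.05 and 0.54 ± 0.05. Cap1, whose product recycles cofilin-bound monomers, changed by 0.52 ± 0.04. Profilin genes moved in opposite directions. Pfn1 averaged 253 ± 15.3 and 193 ± 6.40 scaled units in agonist-treated and vehicle-treated WT cells, a log2 fold change of 0.39 ± 0.09 that did not pass the test under the other 2 scalings. Pfn2 ranged from 12.2 to 18.7 with a median of 15.6 in agonist-treated WT libraries, against 17.1 to 23.4 with a median of 20.0 in vehicle-treated WT libraries. The Pfn2 groups overlapped at their edges, and its log2 fold change was -0.37 ± 0.09 (adjusted p = 0.00112). The coronin genes also parted, Coro1c at 0.46 ± 0.06 and Coro1b at -0.13 ± 0.03, where all 6 agonist-treated libraries lay below all 6 vehicle-treated ones. Gsn, which encodes the calcium-dependent severing protein gelsolin, averaged 488 ± 39.8 in agonist-treated and 488 ± 17.2 scaled units in vehicle-treated WT cells, and Twf1, which encodes the monomer-binding protein twinfilin, had a log2 fold change of 0.07 ± 0.05.

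Capping protein, a dimer that closes barbed ends, changed by small amounts, and its calls depended on the scaling. Capza1, Capza2 and Capzb were called higher with the deposited factors, none of them under quantile scaling and only Capzb with the same total. Capzb ranged from 374 to 418 scaled units with a median of 394 in agonist-treated WT libraries, against 300.2 to 322 with a median of 311 in vehicle-treated WT libraries, a log2 fold change of 0.34 ± 0.04 (adjusted p = 3.08e-07). Capza1 ranged from 178 to 210 with a median of 192, against 154 to 167 with a median of 160, a log2 fold change of 0.26 ± 0.04 (adjusted p = 1.13e-06). Neither gene's groups overlapped on the deposited scale.

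All 4 tropomyosin genes, whose coiled-coil products lie along filaments and set which myosins and severing proteins reach them, were called higher, 3 of them under all 3 scalings and Tpm3 not under quantile scaling. Tpm2, the least abundant, ranged from 15.8 to 26.5 scaled units with a median of 16.8 in agonist-treated WT libraries, against 4.42 to 10.6 with a median of 5.59 in vehicle-treated WT libraries. The groups did not overlap, although 1 agonist-treated library stood well above the other 5, and the log2 fold change was 1.44 ± 0.15 (adjusted p = 1.04e-08). Tpm1 averaged 1084 ± 74.6 and 594 ± 23.0 and Tpm4 282 ± 21.2 and 154 ± 7.31 in agonist-treated and vehicle-treated WT cells, and both had a log2 fold change of 0.87. Tpm3 ranged from 826 to 905 with a median of 847 in agonist-treated WT libraries, against 546 to 636 with a median of 578 in vehicle-treated WT libraries. Its groups did not overlap, and its log2 fold change was the lowest of the 4, 0.54 ± 0.07 (adjusted p = 1.18e-07).

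The 6 crosslinking and scaffold genes were all called higher, and 5 of them under all 3 scalings, Iqgap1 being the exception. Palld encodes palladin, a scaffold of stress fibres and adhesions that binds alpha-actinin. Its level was 187 to 282 scaled units with a median of 227 in agonist-treated WT libraries, against 30.1 to 36.1 with a median of 34.2 in vehicle-treated WT libraries. No other gene of the list rose as much, since its log2 fold change was 2.75 ± 0.07 (adjusted p = 1.63e-20), a ratio of means of 6.84, and the 2 groups were far apart. Flna, which encodes the filament crosslinker filamin A, averaged 231 ± 23.4 and 105 ± 19.3 scaled units in agonist-treated and vehicle-treated WT cells, a log2 fold change of 1.15 ± 0.12. Lima1, Actn4 and Actn1, which encode the bundler EPLIN and the alpha-actinins, had log2 fold changes of 0.84 ± 0.04, 0.77 ± 0.05 and 0.66 ± 0.05. Iqgap1 encodes a large scaffold that binds filaments. It ranged from 283 to 334 with a median of 301 in agonist-treated WT libraries, against 224 to 251 with a median of 243 in vehicle-treated WT libraries, and the log2 fold change of 0.34 ± 0.05 (adjusted p = 5.77e-07) came from groups that did not overlap.

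Non-muscle myosin II heavy chains behaved differently from each other. Myh9 encodes the IIA heavy chain and Myh10 the IIB heavy chain, motors that differ in speed and in how long they stay bound. Myh9 ranged from 1093 to 1434 scaled units with a median of 1292 in agonist-treated WT libraries, against 505 to 569 with a median of 536 in vehicle-treated WT libraries. The groups were well separated, with a log2 fold change of 1.23 ± 0.07 (adjusted p = 2.45e-14). Myh10 ranged from 72.8 to 93.7 with a median of 85.1 in agonist-treated WT libraries, against 69.7 to 93.4 with a median of 81.6 in vehicle-treated WT libraries. Those ranges lay almost on top of each other, and the log2 fold change was 0.06 ± 0.07 (adjusted p = 0.48). The light chain genes Myl6 and Myl9 were called higher, Myl6 at 0.27 ± 0.05 but neither with the same total nor under quantile scaling, and Myl9 under all 3 scalings. Myl9, a regulatory light chain gene typical of smooth muscle, was close to the detection limit. It ranged from 3.09 to 5.27 with a median of 4.26 in agonist-treated WT libraries, against 1.29 to 2.41 with a median of 1.75 in vehicle-treated WT libraries, or at least 23 and at least 9 recovered reads per library. Its groups did not overlap, and its log2 fold change was 1.00 ± 0.17 (adjusted p = 2.09e-05).

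Most of the listed markers of other cell types had no single row of their own. Any marker found only in a row of joined names was counted as having none. Those with a row gave little signal apart from Smtn. Of 11 smooth muscle markers, 4 had a single row of their own. Their summed level was 102 to 121 scaled units in agonist-treated WT libraries and 69.1 to 95.9 in vehicle-treated WT libraries, nearly all Smtn. The defining genes were at or near 0, Tagln at 0 in most libraries and Myh11 and Des at group means of 0.338 to 0.938 over all 4 groups, and Acta2 was not analysed here. Of 12 fibroblast markers, Col1a1 alone had a single row, at 1.70 ± 0.88 and 1.12 ± 0.38 scaled units in agonist-treated and vehicle-treated WT cells. The summed level of the 14 collecting duct and epithelial markers was 9099 to 11870 in agonist-treated and 4998 to 5757 in vehicle-treated WT libraries. Krt18 alone averaged 6356 ± 638 and 2236 ± 196 in those groups. Krt18, Cdh1 and Epcam were the 3 called higher and 6 were called lower, where 28.6% of all rows were called in each direction. The median log2 fold change of these markers was -0.17. The part of the shift in this sum in the results above was not tested.

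The ERM genes encode ezrin, moesin and radixin, which link filaments to membrane proteins once phosphorylated. All 3 were called higher with the deposited factors, Ezr and Msn under all 3 scalings, and the sign of Rdx turned under both alternatives. Ezr, the epithelial member, ranged from 1486 to 1873 scaled units with a median of 1594 in agonist-treated WT libraries, against 928 to 1012 with a median of 972 in vehicle-treated WT libraries. The groups did not overlap, and the log2 fold change was 0.75 ± 0.05 (adjusted p = 5.35e-13). Msn averaged 260 ± 16.7 and 160 ± 32.4 in the same groups, a log2 fold change of 0.72 ± 0.10. Rdx ranged from 109 to 123 with a median of 119 in agonist-treated WT libraries, against 102 to 109 with a median of 105 in vehicle-treated WT libraries, and the log2 fold change was 0.16 ± 0.04 (adjusted p = 0.000932) with ranges that touched.

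Members of 1 gene family could be compared inside each library, where the scaling between libraries cancels. For 23 pairs of paralogues the log2 ratio was compared between agonist-treated and vehicle-treated WT libraries with a two-sided exact permutation test, whose smallest possible p is 0.00216, adjusted over the 23 pairs. The ratio changed in 17 pairs, and in 15 of these the groups did not overlap, each with an adjusted p of 0.00332. The other 2 pairs, Tpm1 to Tpm2 and Tpm2 to Tpm4, overlapped and lost their calls with a pseudocount of 2 (adjusted p = 0.0849 by the exact permutation test), which left 15 pairs. How often the ratio of unrelated genes changes was not tested, and 57.2% of all rows were called between these groups, so the count has no background. The Myh9 to Myh10 ratio had the largest shift, at 15.1 ± 1.93 in agonist-treated and 6.70 ± 0.69 in vehicle-treated WT cells (SD, n = 6 each), a log2 difference of 1.17. The Tpm2 to Tpm3 ratio followed, at 0.0213 ± 0.00463 in agonist-treated and 0.0110 ± 0.00329 in vehicle-treated WT cells, a log2 difference of 0.90. Vasp stood at 2.71 ± 0.30 times Evl in agonist-treated and 1.51 ± 0.10 times Evl in vehicle-treated WT cells. For Actr3 to Actr2, subunits that sit in the complex in equal number, the ratio was 2.69 ± 0.21 in agonist-treated and 1.54 ± 0.06 in vehicle-treated WT cells.

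The Pfn1 to Pfn2 ratio was 16.5 ± 2.57 in agonist-treated and 9.65 ± 1.08 in vehicle-treated WT cells, and Arpc5 to Arpc5l was 2.72 ± 0.26 and 1.68 ± 0.06 in the same groups. Cfl1 stood lower against Dstn, at 0.335 ± 0.032 in agonist-treated and 0.525 ± 0.068 in vehicle-treated WT cells. Coro1b to Coro1c was also lower, at 2.99 ± 0.17 and 4.53 ± 0.43. Actb to Actg1 was 1.68 ± 0.04 in agonist-treated and 1.34 ± 0.03 in vehicle-treated WT cells, so that beta-actin RNA gained on gamma-actin RNA while both rose. A small shift of -0.11 in log2 for Actn1 to Actn4 still separated all libraries, since those ratios varied by little.

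The ratio did not pass the test in 6 pairs: Tpm1 to Tpm4, Cfl1 to Cfl2, Capza1 to Capza2, Ezr to Msn, Diaph1 to Diaph2 and Diaph1 to Diaph3. Tpm1 to Tpm4 was 3.85 ± 0.14 in agonist-treated and 3.86 ± 0.13 in vehicle-treated WT cells although the ratio of group means was 1.82 for Tpm1 and 1.83 for Tpm4. Ezr to Msn was 6.35 ± 0.99 and 6.27 ± 1.37, a ratio that varied widely between libraries of a group. Pairs that share a gene, such as those with Tpm2, are not independent.

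**Figure D4:**
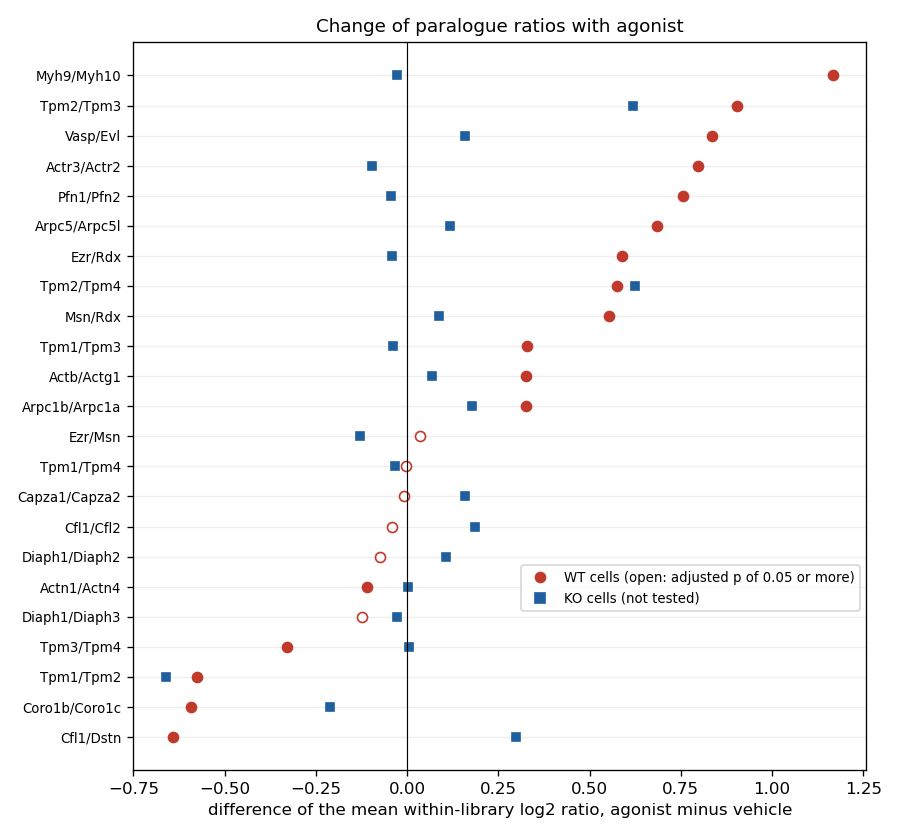
Difference between agonist and vehicle in the mean within-library log2 ratio of 23 pairs of paralogues, in WT cells (red circles, open where the adjusted p is 0.05 or more) and in KO cells (blue squares, given without a test). The ratio of Myh9 to Myh10 shifts most in WT cells, by 1.17, and by -0.03 in KO cells, whereas the pairs with Tpm2 shift in both.

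In KO cells the agonist left most of these genes near their vehicle level. Of the 49 genes, Coro1c and Tpm2 were called higher and Arpc5l lower in agonist-treated against vehicle-treated KO cells, where 9.3% of all rows were called, 4.66% higher and 4.64% lower. These 3 of 49 genes are 6.12%, near the background. At an unadjusted p below 0.05, 12 genes passed, or 24.5%, against 28.0% of all rows. Tpm2 ranged from 10.7 to 16.1 scaled units with a median of 13.1 in agonist-treated KO libraries, against 7.03 to 9.20 with a median of 8.43 in vehicle-treated KO libraries. It was the one gene whose KO groups did not overlap, a state that held for 2.55% of all rows in the higher direction, with a log2 fold change of 0.61 ± 0.15 (adjusted p = 0.0201). Coro1c averaged 101 ± 9.07 in agonist-treated and 85.4 ± 3.61 in vehicle-treated KO cells, a log2 fold change of 0.23 ± 0.06 (adjusted p = 0.0206) that lost its call without agonist-treated KO library 1 or 4. Arpc5l ranged from 101 to 107 with a median of 103 in agonist-treated KO libraries, against 103 to 127 with a median of 118 in vehicle-treated KO libraries. Its log2 fold change was -0.17 ± 0.05 (adjusted p = 0.0251), and the call was lost with the same total and without any 1 of agonist-treated KO libraries 1 and 5 and vehicle-treated KO libraries 3 and 5.

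Actb, Palld and Myh9, which were among the genes with the largest changes in WT cells, did not pass the test here. Actb ranged from 4038 to 4487 with a median of 4240 scaled units in agonist-treated KO libraries, against 4101 to 4741 with a median of 4390 in vehicle-treated KO libraries, a log2 fold change of -0.04 ± 0.06. Palld ranged from 54.2 to 64.7 with a median of 59.5 in agonist-treated KO libraries, against 50.2 to 59.4 with a median of 57.7 in vehicle-treated KO libraries, a log2 fold change of 0.06 ± 0.07. Myh9 ranged from 549 to 632 with a median of 598, against 462 to 585 with a median of 538, a log2 fold change of 0.17 ± 0.07 (adjusted p = 0.0911). In each case the KO groups overlapped. Without vehicle-treated KO library 6 the log2 fold changes in KO cells were -0.02 ± 0.06 for Actb, 0.07 ± 0.07 for Palld and 0.13 ± 0.06 for Myh9, and Tpm2, Coro1c and Arpc5l kept their calls at 0.63 ± 0.16, 0.22 ± 0.06 and -0.21 ± 0.04. The count of calls in KO cells rested on single libraries, being 1 without agonist-treated KO library 1, 8 without agonist-treated KO library 2, 5 without vehicle-treated KO library 6 and 10 without both of the last. Shares of all rows are not given for these settings.

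The agonist effect itself was compared between genotypes as an interaction, the effect in WT cells minus that in KO cells. It was called for 34 of the 49 genes, 33 with a larger effect in WT cells and 1, Coro1b, with a more negative one, where 41.1% of all rows were called, 21.5% higher and 19.6% lower. The median interaction was 0.48 over the 49 genes and -0.02 over all rows. With the same total 22 were called higher and 10 lower, and under quantile scaling 21 higher and 5 lower, and 19 were higher under all 3. No share of all rows is given for these alternatives. The largest interactions were those of Palld at 2.69 ± 0.10, Actb at 1.72 ± 0.08, Actg1 at 1.46 ± 0.10, Dstn at 1.39 ± 0.11 and Actr3 at 1.19 ± 0.08. All 4 tropomyosin genes were among those called, Tpm3 not under quantile scaling, and Tpm2, which rose in both genotypes, had an interaction of 0.83 ± 0.21 (adjusted p = 0.00286). Of the 8 nucleation-promoting and elongation factors, Vasp and Wasl had a call in the interaction, and that of Wasl was lost with the same total (limma, adjusted p = 0.101) and under quantile scaling (adjusted p = 0.0681), where Diaph2 gained one. Without vehicle-treated KO library 6, 36 genes were called, 35 of them higher, Arpc1b and Diaph1 being added, and the interaction was 2.68 for Palld, 1.70 for Actb, 1.51 for Actg1, 1.33 for Dstn and 1.20 for Actr3. The share of all rows called without that library is not given here.

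Without agonist, KO and WT cells differed in 23 of the 49 genes, 11 higher and 12 lower in vehicle-treated KO cells. That share, 46.9%, was close to the 47.8% of all rows called, 23.9% higher and 23.9% lower. The largest difference was in Evl, on chromosome 12. Evl ranged from 14.0 to 18.4 scaled units with a median of 15.8 in vehicle-treated KO libraries, against 70.2 to 91.1 with a median of 82.3 in vehicle-treated WT libraries. The groups were far apart, with a log2 fold change of -2.32 ± 0.07 (limma, adjusted p = 2.95e-19). The level of Vasp was 7.01 ± 1.56 times that of Evl in vehicle-treated KO cells, with libraries from 4.17 to 8.68. Without library 6 it was 7.58 ± 0.80 times, and in vehicle-treated WT cells it was 1.51 ± 0.10 times. The 408 rows of chromosome 12 had a median of 0.0944. Myl9 ranged from 0.518 to 1.35 with a median of 0.657 in vehicle-treated KO libraries, against 1.29 to 2.41 with a median of 1.75 in vehicle-treated WT libraries, values of as few as 4 reads per library, and its log2 fold change was -0.90 ± 0.17 (adjusted p = 0.00012).

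Arpc4 lay on chromosome 6, where the median log2 fold change of 527 rows was -0.329 in this comparison. It ranged from 33.3 to 40.9 with a median of 40.1 scaled units in vehicle-treated KO libraries, against 53.1 to 62.4 with a median of 54.9 in vehicle-treated WT libraries. No KO library reached a WT library, and its log2 fold change was -0.52 ± 0.05 (adjusted p = 7.18e-09). Wasl and Capza2 are on the same chromosome, at log2 fold changes of -0.03 ± 0.08 and -0.13 ± 0.05. Palld lay on chromosome 8, where 631 rows had a median of 0.174, and ranged from 50.2 to 59.4 with a median of 57.7 in vehicle-treated KO libraries, against 30.1 to 36.1 with a median of 34.2 in vehicle-treated WT libraries. Its log2 fold change was 0.74 ± 0.07 (adjusted p = 2.25e-09). The part of these shifts along whole chromosomes in the values of Arpc4 and Palld was not tested.

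Pfn2 and Diaph3 were also higher in vehicle-treated KO cells, without overlap. Pfn2 ranged from 26.4 to 30.8 with a median of 29.6 scaled units in vehicle-treated KO libraries, against 17.1 to 23.4 with a median of 20.0 in vehicle-treated WT libraries, a log2 fold change of 0.51 ± 0.09 (adjusted p = 4.77e-05). Diaph3, a formin gene, ranged from 56.2 to 66.6 with a median of 58.1, against 34.5 to 49.6 with a median of 44.3, a log2 fold change of 0.47 ± 0.08 (adjusted p = 5.16e-05). In contrast Actb averaged 4388 ± 222 in vehicle-treated KO cells, or 4317 ± 155 without library 6, and 4420 ± 330 in vehicle-treated WT cells. Without vehicle-treated KO library 6 the count was 26, 11 higher and 15 lower, and no share of all rows is given for that setting. Actr2, Arpc2, Cap1, Capza1, Capzb, Tpm3 and Flna then passed the test, and Arpc5, Dstn, Tpm2 and Myl6 no longer did. Evl, Arpc4, Palld, Pfn2, Diaph3 and Myl9 kept their calls, at log2 fold changes of -2.34 ± 0.07 for Evl, -0.48 ± 0.04 for Arpc4, 0.73 ± 0.07 for Palld, 0.50 ± 0.09 for Pfn2, 0.43 ± 0.08 for Diaph3 and -0.85 ± 0.18 for Myl9. Arpc4 had its lowest and Diaph3 its highest KO value in library 6, and without it they averaged 40.0 ± 0.88 and 57.9 ± 1.76 scaled units in vehicle-treated KO cells.

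**Figure D5:**
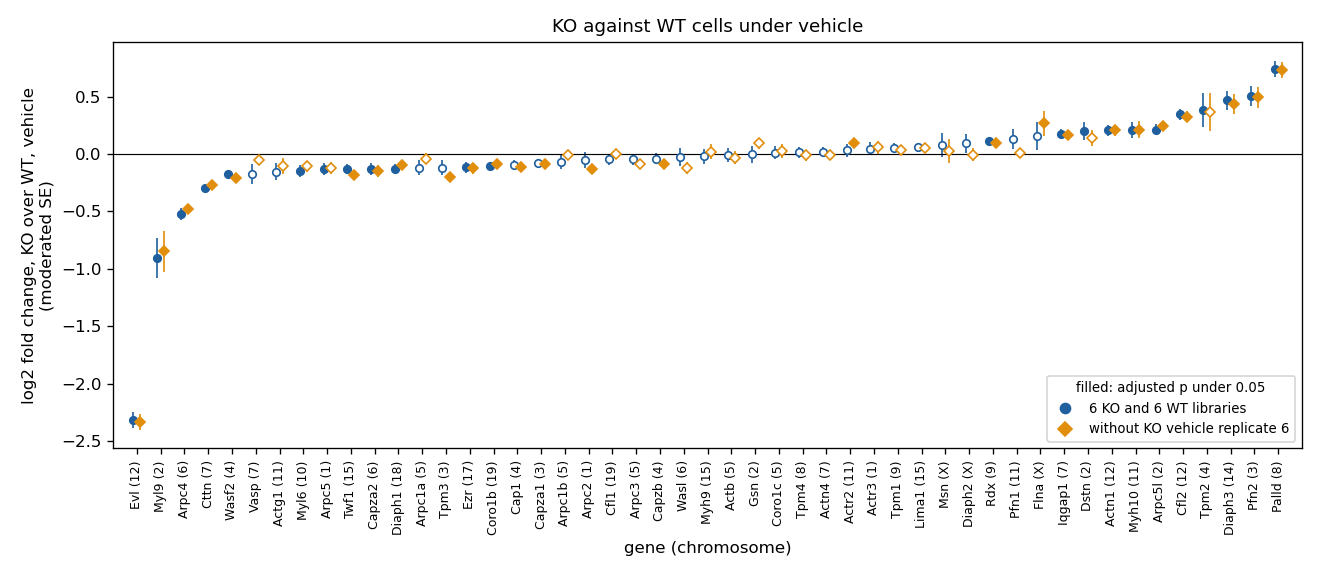
Log2 fold change of vehicle-treated KO over vehicle-treated WT cells for the 49 genes, ordered by value, with the chromosome in parentheses, for all 6 KO libraries (blue circles) and without KO vehicle library 6 (orange diamonds). Bars are moderated standard errors and filled symbols have an adjusted p below 0.05. Evl at -2.32 and Palld at 0.74 stand at the ends, and 23 genes are called with all libraries and 26 without that library.

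Under agonist, 44 of the 49 genes differed between KO and WT cells, 40 lower and 4 higher in agonist-treated KO cells, where 64.1% of all rows were called, 32.1% lower and 32.0% higher. With the same total 26 were lower and 10 higher, and under quantile scaling 27 lower and 9 higher, given without the shares of all rows under those scalings. This comparison shares its WT libraries with the agonist effect in WT cells, so these counts are not independent. Arpc5l, Diaph3, Pfn2 and Myh10 were higher in agonist-treated KO cells under all 3 scalings. Myh10 averaged 108 ± 9.35 scaled units in agonist-treated KO cells and 84.3 ± 7.49 in agonist-treated WT cells, a log2 fold change of 0.35 ± 0.07.

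Genes that extend this machinery were taken from further lists. Of 24 genes for WAVE and WASP partners and other nucleators, 13 were higher and 6 lower in agonist-treated WT cells, where 28.6% of all rows were called in each direction. Washc1, a subunit gene of the endosomal WASH complex, was lower at -0.45 ± 0.04, while Baiap2 and the formin gene Daam1 were higher at 0.65 ± 0.07 and 0.47 ± 0.05. Of 40 other filament-binding, bundling and capping genes, 22 were higher and 1 lower. Flnc, the muscle-enriched filamin gene, averaged 258.5 ± 55.3 in agonist-treated and 49.1 ± 6.23 scaled units in vehicle-treated WT cells, a log2 fold change of 2.37 ± 0.11. Lcp1, which encodes the bundler L-plastin, averaged 37.8 ± 5.29 and 8.38 ± 1.28 in those groups, and Wdr1, which encodes a cofilin cofactor, 553 ± 40.5 and 314 ± 11.7. In KO cells 3 of the 24 nucleator genes were called higher and none lower, and of the 40 other filament-binding genes 7 were called higher and 2 lower, against 4.66% of all rows higher and 4.64% lower. How these counts in KO cells move without single libraries was not tested.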

How the data were processed

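Poly(A) RNA libraries were analysed from 24 samples in 4 groups of 6, taken from the sample titles. The authors deposited 1 table, which holds gene lengths and, for each gene in each library, a normalised signal. The tools STAR 2.7.8a, DESeq and DESeq2 and the build GRCm39 are named without roles, per the submitters' processing notes; the counter, the annotation and the use of strand are not given in the sources used here. Each deposited signal times gene length was a multiple of 0.1, and a factor per library of 0.754 to 1.46 turned at least 99.9% of these products into whole numbers within 0.05 times the factor, giving 29785162 to 51931776 reads. Levels were multiplied by 92.1. Of 12224 rows, the 11557 whose mean level reached 1 scaled unit were kept, and log2(scaled units + 0.5) was fitted in limma 3.58.1 with a term per group, mean trend and robust moderation and 20 residual degrees of freedom. A fold change on this scale understates that of low genes. P-values are two-sided and were adjusted by the Benjamini-Hochberg method over all kept rows, and errors after a log2 fold change are moderated standard errors. Ratios of paralogues were tested in SciPy 1.17.1.

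The fit was run on simulated data, with independent normal values and a small part of the rows changed in agonist-treated WT cells only. In the data 57.2% of all rows were called between agonist-treated and vehicle-treated WT cells, a setting that the simulation does not cover. Its outcome is not given here. The genes, their roles and all further lists were chosen with earlier results of these data known. Values per library are given for Actb and Actg1, for the genes with the highest and lowest agonist effect in WT cells within each role, and for the 3 highest and 3 lowest called genes between KO and WT cells under vehicle. The genes called for the agonist in KO cells, which this rule does not cover, were named after their values were seen. From each further list up to 3 called genes with the smallest adjusted p are named. Alternatives covered the pseudocount, the filter, the scaling, the samples fitted, the moderation, single libraries, recovered reads in voom and the replicate number. The titles give every group numbers 1 to 6, but correlations of deviations between libraries with 1 number ran from -0.31 to 0.49, with 10 of 36 above 0.1, so the numbers were not taken as pairs. The recovered reads were fitted as an alternative only, since the deposited values are divided by gene length. Promoter stretches are from RefSeq on GRCm38.p6, another build than that of the table; genes without an entry were Actb, Arpc5l, Coro1b, Cttn and Diaph1. Some lists of regulators are not reported here.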

Additional observations from a re-analysis of the deposited data

Results flagged for a closer look

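In 26 of 196 sets of 6 libraries (1 gene in 1 group), 1 library lay far from the other 5, by the gap to its nearest neighbour over the range of the set. Chance gives this in about 1 in 20 sets. Of the 26, 21 were in replicate 6 of the vehicle-treated KO cells. In that library 10 genes lay below the other 5 libraries of the group, in scaled units: Actg1 at 2494 against 2970 to 3149, Actr2 at 145 against 185 to 205, Arpc1a at 102 against 138 to 146, Arpc1b at 159 against 204 to 217, Arpc4 at 33.3 against 38.6 to 40.9, Vasp at 70.5 against 110 to 122, Cttn at 281 against 303 to 311, Cfl1 at 196 against 227 to 240, Gsn at 352 against 511 to 530 and Myl6 at 269 against 316 to 328. Another 11 genes lay above them: Arpc2 at 1091 against 769 to 797, Arpc3 at 235 against 194 to 203, Wasl at 195 against 126 to 139, Wasf2 at 107 against 91.5 to 95.8, Diaph2 at 17.6 against 11.0 to 12.2, Dstn at 645 against 483 to 527, Pfn1 at 323 against 192 to 200, Twf1 at 197 against 150 to 161, Capzb at 355 against 283 to 300, Tpm3 at 716 against 493 to 530 and Msn at 199 against 153 to 167. Outside that library, Coro1c stood at 92.2 in vehicle-treated KO replicate 5 against 82.2 to 85.3, Palld at 50.2 in vehicle-treated KO replicate 2 against 56.5 to 59.4, Myh10 at 88.6 in vehicle-treated KO replicate 1 against 93.1 to 95.5, Tpm2 at 26.5 in agonist-treated WT replicate 3 against 15.8 to 17.4, and Iqgap1 at 224 in vehicle-treated WT replicate 6 against 242 to 251.

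The agonist effect differed between WT and KO cells for 34 genes, as the interaction in limma (adjusted p 9.02e-17 to 0.0333), given here as the log2 fold change in WT cells minus that in KO cells. It was 1.72 for Actb and 1.46 for Actg1. Among the genes of branched assembly and elongation it was 0.292 for Actr2, 1.19 for Actr3, 0.542 for Arpc2, 0.699 for Arpc4, 0.638 for Arpc5, 0.475 for Wasl and 0.771 for Vasp. Among those of monomer binding and turnover it was 0.45 for Cfl1, 0.676 for Cfl2, 1.39 for Dstn, 0.55 for Pfn1, 0.503 for Cap1, -0.156 for Coro1b and 0.223 for Coro1c, and for the capping genes it was 0.228 for Capza1, 0.396 for Capza2 and 0.37 for Capzb. The tropomyosin genes had 0.911 for Tpm1, 0.829 for Tpm2, 0.544 for Tpm3 and 0.88 for Tpm4. The crosslinking and scaffold genes had 0.668 for Actn1, 0.781 for Actn4, 0.847 for Flna, 0.789 for Lima1, 2.69 for Palld and 0.282 for Iqgap1. The myosin genes had 1.06 for Myh9, 0.375 for Myl6 and 0.729 for Myl9, and the membrane linker genes 0.733 for Ezr and 0.569 for Msn.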

How the results depend on the processing

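The number of genes called for the agonist in KO cells, 3, became 6 under quantile scaling, 6 with the compared groups alone, 5 with the replicate number as a block and 10 without replicate 6 of the vehicle-treated and replicate 2 of the agonist-treated KO cells; leaving out 1 library gave 1 to 8, lowest without agonist-treated KO replicate 1 and highest without replicate 2. Leaving out 1 library gave 42 to 44 for the agonist in WT cells, 33 to 36 for the interaction, 17 to 26 for KO against WT cells under vehicle and 43 to 45 under agonist. The numbers did not pair the libraries, and with the block these comparisons had 43, 34, 22 and 45 calls. The shares of all rows called in these settings are not given here. With the same total and with quantile scaling, the log2 fold change for the agonist in WT cells was -0.15 and -0.042 for Evl, -0.18 and -0.070 for Myh10, and -0.079 and -0.011 for Rdx. The interaction was -0.21 and -0.096 for Arpc5l, -0.048 and -0.012 for Capza1, -0.18 and -0.038 for Evl, and -0.175 and -0.093 for Rdx; it was -0.087 for Diaph3 with the same total and -0.016 for Iqgap1 under quantile scaling. The cause was not tested. Of the values for single genes, 403 kept direction and side of the threshold, 16 reversed, 20 lost and 5 gained a call. The nature of the replicates is not given, so p-values measure the spread between these libraries, which may be technical, and the genotypes and any difference between clones cannot be told apart.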
